A study of Mus musculus with 6 samples.

Results

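The 10 cathepsin genes Ctsa, Ctsb, Ctsc, Ctsd, Ctse, Ctsh, Ctsk, Ctsl, Ctss and Ctsz were examined in tumor endothelial cells (ECs) of WT and Apelin-KO mice. They were taken by name from the 24346 gene symbols measured, and all 10 were found. MC38 murine colon carcinoma cells had been inoculated subcutaneously, and ECs were sorted from the digested tumors as CD31-positive, CD45-negative cells. The WT group held 3 samples from C57BL/6 mice and the Apelin-KO group held 3 samples from mice of the same background that lack Apelin in the whole body. The titles of all 6 samples also name saline, and the study's methods do not say whether an osmotic pump delivered it here. Mice of both genotypes fell in the same age range. Expression was given as FPKM (fragments normalised to transcript length and to mapped reads), a level per length, so that levels of different genes can be set side by side.

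Cathepsins are proteases that mature in the acidic lysosome, where they break down proteins delivered by endocytosis and autophagy. They are made as inactive precursors, tagged with mannose-6-phosphate in the Golgi and carried to lysosomes, and cystatins and stefins inhibit those of the papain-like type. Cathepsins B, C, H, K, L, S and Z are papain-like cysteine proteases, cathepsins D and E are aspartic proteases, and cathepsin A is a serine carboxypeptidase. Some are made by nearly every cell type, while cathepsin S is known from antigen-presenting cells and macrophages and cathepsin K from osteoclasts and fibroblasts. Secreted cathepsins are known to cleave basement membrane and other matrix proteins around growing tumor vessels.

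The 6 libraries were similar in size, and the deposited values fit the labels for the gene removed. The FPKM of a sample summed to between 489396 and 529018, and the estimated depth was between 8970000 and 10160000 reads. Apln was between 432 and 504.1 FPKM in WT ECs and between 9.96 and 24.3 FPKM in Apelin-KO ECs (log2 fold change 4.73, standard error (SE) 0.29, adjusted p = 0.00747 from limma). EC identity was clear in every sample, with a summed level of 16 endothelial marker genes between 6195 and 8187 FPKM. The 11 epithelial tumor cell markers summed to between 8.72 and 21.8 FPKM. Marker genes of other cell types were nevertheless present in unequal amounts. The 15 macrophage markers summed to 525, 928 and 252 FPKM in WT 1, 2 and 3, and to 114, 308 and 278 FPKM in Apelin-KO 1, 2 and 3. The 18 hematopoietic markers, which include Srgn and Lcp1 at high levels in all samples, summed to between 568 and 878 FPKM in WT ECs and between 521 and 633 FPKM in Apelin-KO ECs. The endothelial markers ran the other way without overlap of the groups, from 6195 to 7514 FPKM in WT ECs and from 7601 to 8187 FPKM in Apelin-KO ECs.

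Promoter sequence is shown first for the members that hold the letters of either of a pair of motifs. The sequences are given as a description, and no link between these letters and the expression values was tested. RefSeq promoter windows, from 250 bases before to 50 bases after a transcript start on GRCm38.p6, were at hand for 7 of the 10 members in 8 windows. Ctsb, Ctse and Ctsh had none in the table used. The CLEAR element bound by TFEB, a regulator of lysosomal genes, was searched as TCACGTGA, which reads the same on both strands. A core of the site of PU.1, a transcription factor of myeloid cells, was searched as GAGGAAGT on both strands, and the 2 motifs do not overlap each other. In the windows below, capitals mark these letters, positions are counted from the transcript start, and the sequence is written along the strand of the gene, so that the PU.1 letters in Ctss and Ctsc appear as their reverse complement.

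Ctsd, chr7:142387877-142388016, minus strand, positions -189 to -50: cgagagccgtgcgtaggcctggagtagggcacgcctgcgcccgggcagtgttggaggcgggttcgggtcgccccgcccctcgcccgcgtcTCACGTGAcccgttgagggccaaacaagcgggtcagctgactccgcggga

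Ctsa, second start, chr2:164833670-164833784, plus strand, positions -103 to 12: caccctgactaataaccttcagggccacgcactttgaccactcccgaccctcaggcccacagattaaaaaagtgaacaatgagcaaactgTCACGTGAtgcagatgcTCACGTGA

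Ctss, chr3:95526694-95526791, plus strand, positions -92 to 6: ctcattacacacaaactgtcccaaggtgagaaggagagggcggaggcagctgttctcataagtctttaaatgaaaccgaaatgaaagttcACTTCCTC

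Ctsc, chr7:88277844-88277983, plus strand, positions -241 to -102: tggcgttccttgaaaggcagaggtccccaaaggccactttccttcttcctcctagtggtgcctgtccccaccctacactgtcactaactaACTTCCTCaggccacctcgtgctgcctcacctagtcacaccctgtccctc

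The CLEAR letters stood at -99 to -92 of the RefSeq start of Ctsd, and at -13 to -6 and 5 to 12 around the second annotated start of Ctsa. In GENCODE, which gives the gene positions below, Ctsd begins further upstream, so its CLEAR letters lie inside that span. Over all 32851 windows, CLEAR letters were found in 320, or 0.974%. The PU.1 letters stood on the reverse strand at -2 to 6 of Ctss and at -151 to -144 of Ctsc, and were found in 3.2% of all windows. The windows of Ctsk, Ctsl and Ctsz and the first start of Ctsa held neither. These matches are letters in a window, and the data do not show whether a factor was bound there. Both motifs were chosen with the expression values known.

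The family spanned a wide range of levels, with lysosomal housekeeping members at the top in both genotypes. Ctsb, Ctsd and Ctsl made up most cathepsin transcripts, with means over the 6 samples of 415, 347 and 308 FPKM. Ctsz followed at 127, Ctss at 101, Ctsa at 64.0, Ctsc at 33.8 and Ctsh at 18.0 FPKM. Ctsk at 1.19 FPKM and Ctse at 0.152 FPKM were far below the others. By mean, Ctss stood above Ctsz in WT ECs and below Ctsa in Apelin-KO ECs. Neighbours in the order of WT ECs were separated, without overlap of their 3 values, only between Ctsl and Ctss, between Ctsz and Ctsa, between Ctsh and Ctsk, and between Ctsk and Ctse. In Apelin-KO ECs Ctsb lay above Ctsl and Ctsd, Ctsd above Ctsz, Ctsz above Ctsa, Ctsh above Ctsk and Ctsk above Ctse without overlap, and the other neighbours overlapped.

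**Figure D1:**
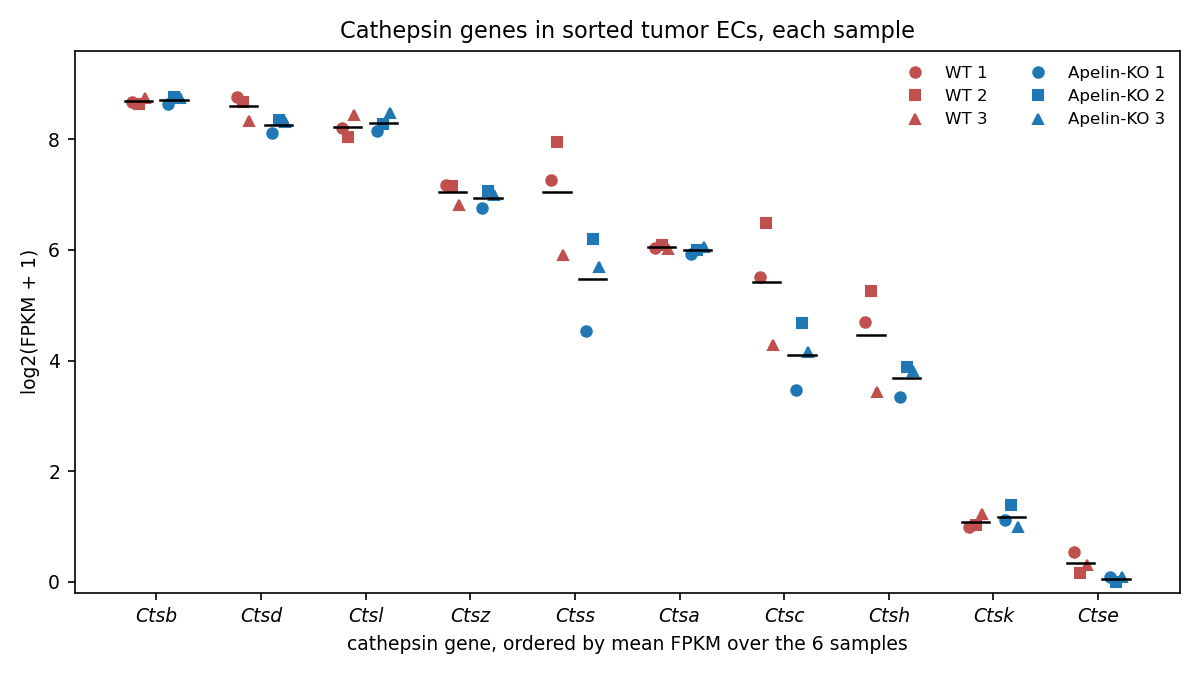
Expression of the 10 cathepsin genes on the scale log2(FPKM + 1), 1 point per sample (WT red, Apelin-KO blue, shape by replicate number) with the group mean as a black line. Ctss and Ctsc spread widely within each genotype and Ctsh within WT, while the 6 values of Ctsb and of Ctsa nearly coincide.

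WT and Apelin-KO ECs were compared to learn whether the loss of Apelin goes with a different level of any cathepsin. By mean, Ctss, Ctsc and Ctsh were higher in WT ECs, 3.17-fold, 2.93-fold and 2.01-fold by the ratio of mean FPKM. Ctsb, Ctsl, Ctsa, Ctsk and Ctsz differed by at most 0.10 on the log2 scale, in either direction, and Ctsd was 1.27-fold higher in WT ECs. No difference passed the test. The limma fit took 10964 genes whose mean was not under 1 FPKM, 9 of the 10 members among them, and 0 of the 9 had an adjusted p-value under 0.05, where 0.00912% of all genes tested did. At an unadjusted p-value under 0.05, 2 of the 9 passed, Ctss and Ctsc, against 9.42% of all genes tested. Both were higher in WT ECs, a direction in which 5.17% of all genes passed. The groups did not overlap, in either direction, for 0 of the 9 members, where this held for 14.4% of all genes tested. For 6.61% of all genes the WT values were the higher ones without overlap. The median log2 fold change was 0.10 over the 9 members and -0.01 over all genes tested, and 6 of the 9 members were higher in WT ECs, where 47.5% of all genes were. With 3 samples a group, an exact permutation test of single genes could not go below 0.1. In these bulk samples, more cells of a type and more RNA per cell cannot be told apart.

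**Figure D2:**
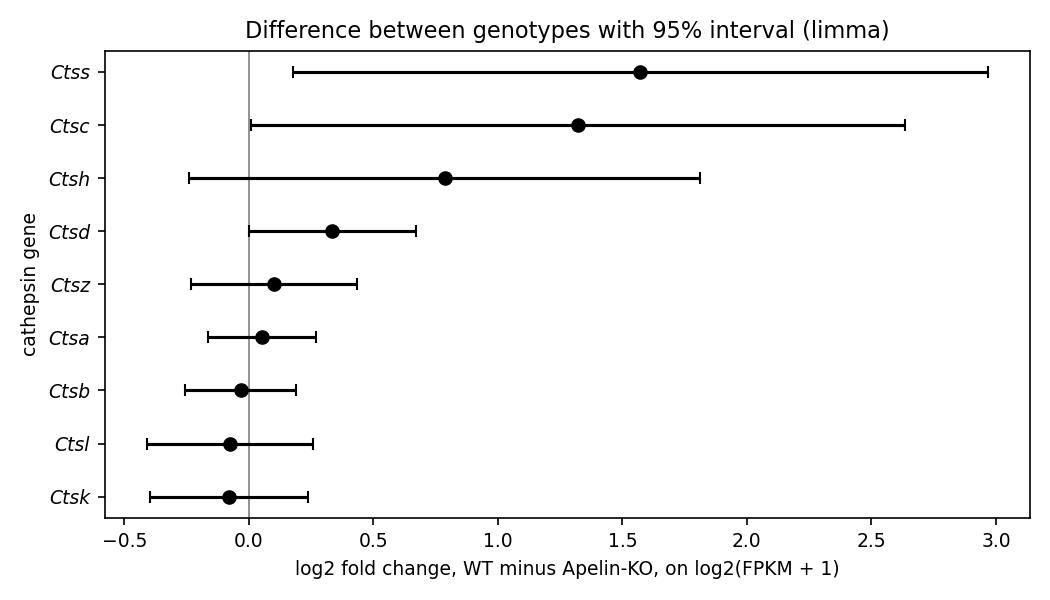
Log2 fold change, WT minus Apelin-KO, of the 9 cathepsin genes tested, with the 95% interval from limma as a bar. The intervals of Ctss and Ctsc are the widest and the only ones wholly above 0, while that of Ctsd just reaches 0 and the others include it.

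Ctss encodes cathepsin S, which trims the invariant chain during loading of MHC class II molecules. Its gene spans bases 95526786 to 95556403 of chromosome 3 (GRCm38, plus strand). Its level was 153, 247 and 59.2 FPKM in WT 1, 2 and 3, and 22.2, 72.1 and 50.5 FPKM in Apelin-KO 1, 2 and 3. WT 2 was highest and Apelin-KO 1 lowest, and the groups overlapped because Apelin-KO 2 lay above WT 3. Group means were 153 ± 93.7 (SD, n = 3) for WT and 48.3 ± 25.0 (SD, n = 3) for Apelin-KO ECs, and their log2 fold change was 1.57 (SE 0.59, 95% interval 0.18 to 2.97, limma adjusted p = 0.513). The sample with most Ctss held 10.7 times as much as that with least (on FPKM + 1), and 99.4% of the genes tested had a smaller ratio.

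Ctsc encodes cathepsin C, a dipeptidyl peptidase that activates serine proteases of granules. It lies on chromosome 7 (bases 88278085 to 88310888, plus strand). Its level was 44.7, 88.2 and 18.5 FPKM in WT 1, 2 and 3, and 10.03, 24.7 and 16.9 FPKM in Apelin-KO 1, 2 and 3. The order of the samples was the same as for Ctss, and again only WT 3 and Apelin-KO 2 crossed. The log2 fold change was 1.32 (SE 0.56, 95% interval 0.01 to 2.63, limma adjusted p = 0.525). Of 9 serine proteases listed as cathepsin C targets or their relatives, including granzymes and mast cell proteases, 0 reached a mean of 1 FPKM, and their sum was at most 2.54 FPKM in any sample.

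Ctsh encodes cathepsin H, an aminopeptidase, on chromosome 9 from 90054152 to 90076089. Its level was 24.9, 37.2 and 9.81 FPKM in WT 1, 2 and 3, and 9.15, 13.7 and 13 FPKM in Apelin-KO 1, 2 and 3. WT 1 and WT 2 stood above the other samples, and WT 3 lay below Apelin-KO 2 and 3. The log2 fold change was 0.79 (SE 0.43, 95% interval -0.24 to 1.81, limma adjusted p = 0.609). Ctsc, Ctsh and Ctss, grouped here after their values were seen, summed to 223, 372 and 87.4 FPKM in WT 1, 2 and 3 and to 41.4, 110.5 and 80.4 FPKM in Apelin-KO 1, 2 and 3. The macrophage marker sum given above had the same highest samples, WT 2, WT 1 and Apelin-KO 2 in that order, and the same lowest one, Apelin-KO 1, and only WT 3 and Apelin-KO 3 changed places.

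The differences of Ctss and Ctsc kept their direction but changed in size with the library left out. Without WT 3, the log2 fold changes were 2.14 for Ctss, 1.89 for Ctsc and 1.30 for Ctsh, the groups no longer overlapped for 5 of the 9 members (Ctsc, Ctsd, Ctsh, Ctss and Ctsz) and for 3286 of all 10964 genes, and the lowest adjusted p-value among members was 0.138, for Ctsh. Without WT 2 they were 1.12, 0.80 and 0.39. Without Apelin-KO 1, that of Ctss was 1.10. For Ctss and Ctsc they were 1.46 and 1.28 without WT 1, and 1.68 and 1.35 without Apelin-KO 3. Without Apelin-KO 2 they were 1.93 and 1.61, and the groups did not overlap for 3 members and 3008 of all genes. In that fit, 2 members and 1169 of all genes had an unadjusted p-value under 0.05. No member had an unadjusted p-value under 0.05 when WT 1, WT 2, Apelin-KO 1 or Apelin-KO 3 was left out, fits in which between 538 and 987 of all genes had one. Without WT 3, 4 members and 1233 of all genes had one. Over all alternatives the limma adjusted p ran from 0.204 to 0.931 for Ctss, from 0.199 to 0.931 for Ctsc and from 0.138 to 0.962 for Ctsh.

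**Figure D3:**
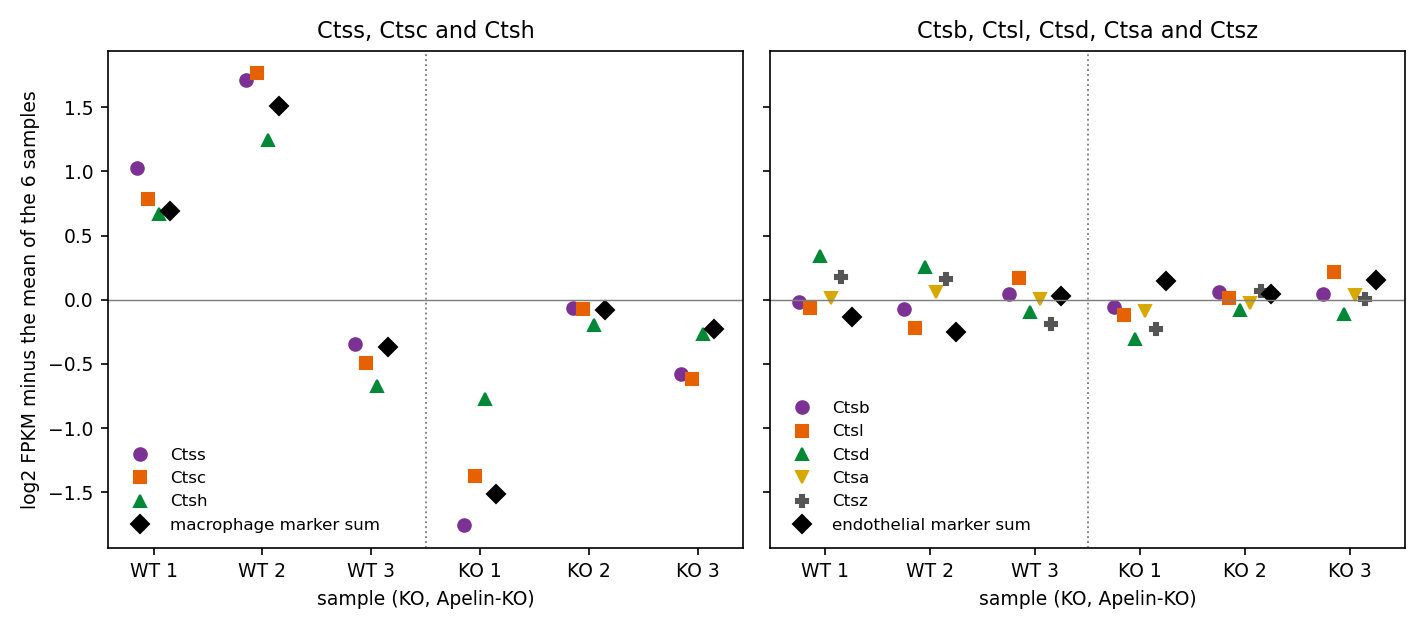
Log2 FPKM of each sample minus the mean of the 6 samples, for Ctss, Ctsc, Ctsh and the summed macrophage markers (left) and for Ctsb, Ctsl, Ctsd, Ctsa, Ctsz and the summed endothelial markers (right), WT left of the dotted line. On the left all series are highest in WT 2 and lowest in Apelin-KO 1, and on the right every series stays much closer to its mean.

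The genes whose sample pattern was most like these members were searched among all genes tested, by the root mean square difference of log2(FPKM + 1) after centring on the mean of the 6 samples. Nearest to Ctsc were Adgre1, the F4/80 antigen of macrophages, at 0.117, and C1qa, a complement component made by macrophages, at 0.146, while Ctsc itself moved by 0.983 on this measure. Nearest to Ctss were Cybb, a subunit of the phagocyte NADPH oxidase, at 0.137, and Ms4a7 at 0.163, and Ctss itself moved by 1.10. Nearest to Ctsh were Gpr65 at 0.0606 and Sema4d at 0.0722, with Ctsh moving by 0.687. Of the other members, Ctsc was the one nearest to Ctss, and Ctss the one nearest to Ctsc, at 0.209. These are the closest of all genes tested, over 6 samples, and describe these samples only.

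The ratio of Ctss to the macrophage marker sum was far more even than Ctss itself. Ctss was 29.2%, 26.6% and 23.5% of that sum in WT 1, 2 and 3, whereas Apelin-KO 1, 2 and 3 had 19.5%, 23.4% and 18.2%. The WT values lay above the Apelin-KO values, by little between WT 3 and Apelin-KO 2. Ctsc was 8.51%, 9.51% and 7.33% of it in WT ECs and 8.78%, 8.02% and 6.08% in Apelin-KO ECs, and here the groups overlapped. Ctsh was between 3.89% and 4.74% of it in 5 of the 6 samples and in the remaining one, Apelin-KO 1, 8.01%, which had the lowest macrophage sum. The evenness of Ctss depended on the marker list. Set against the hematopoietic marker sum, its share ran from 4.27% (Apelin-KO 1) to 28.1% (WT 2). On that sum the groups overlapped, with 10.4% for WT 3 below 11.4% for Apelin-KO 2. All 15 macrophage markers were higher in WT ECs by mean, with a median log2 fold change of 1.24. Of these, 0 had an adjusted p-value and 7 an unadjusted p-value under 0.05. Over all genes tested, 5.17% had such an unadjusted p-value and were higher in WT ECs. No macrophage marker was at 0 in all samples. Lyz2, the lysozyme of myeloid cells, was between 40.9 and 380 FPKM, C1qb between 11.8 and 144 FPKM, and Adgre1 between 2.03 and 23.6 FPKM. Ptprc, which encodes the CD45 antigen removed in the sort, was between 0.043 and 4.84 FPKM. The part of these cells in the values of Ctss, Ctsc and Ctsh was not tested.

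Cd74, the invariant chain that cathepsin S cleaves, ranked the 6 samples in the same order as Ctss. It was 307, 404 and 163 FPKM in WT 1, 2 and 3 and 49.2, 211 and 86.8 FPKM in Apelin-KO 1, 2 and 3, and its log2 fold change was 1.49 with an SE of 0.55 (limma adjusted p = 0.513). WT 3 again lay below Apelin-KO 2. Of the 4 class II loading genes tested from a list of 8, all were higher in WT ECs by mean, 3 had an unadjusted p-value under 0.05 and 0 an adjusted one, and the median log2 fold change was 1.10. The share of all genes tested that passed unadjusted and were higher in WT ECs was 5.17%.

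Ctsk encodes cathepsin K, a collagenase, and is the neighbour of Ctss, ending 17424 bases before it on the same strand of chromosome 3. Its values did not follow those of Ctss. Ctsk was 0.996, 1.04 and 1.34 FPKM in WT 1, 2 and 3, and 1.16, 1.62 and 0.994 FPKM in Apelin-KO 1, 2 and 3. These values stand for an estimated 12.3 to 21.6 reads per sample, and the groups overlapped throughout. The log2 fold change was -0.08 with an SE of 0.13 (limma adjusted p = 0.879), and Ctsk was the member nearest to the filter of 1 FPKM. The ratio of Ctss to Ctsk ran from 19.2 in Apelin-KO 1 to 236 in WT 2. The 11 pericyte markers summed to between 580 and 754 FPKM over all samples. The 8 fibroblast markers tested were all higher in WT ECs by mean, at a median log2 difference of 0.47, and Ctsk did not share that direction.

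Ctsb, on chromosome 14 from 63122462 to 63145923, encodes cathepsin B, a lysosomal cysteine protease with endo- and exopeptidase activity. By the ratio of the highest to the lowest sample, Ctsb was the most even member. By the root mean square of the centred values, Ctsa was slightly more even, at 0.0481 against 0.0518 for Ctsb. Ctsb was 409, 395 and 428 FPKM in WT 1, 2 and 3, and 399, 432 and 429 FPKM in Apelin-KO 1, 2 and 3. The highest sample held 1.09 times the lowest, and only 0.994% of the genes tested varied less. The log2 fold change was -0.03 (95% interval -0.26 to 0.19, adjusted p = 0.934 from limma). With values scaled to the same FPKM sum, the sign turned to 0.01.

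Ctsl, the endopeptidase cathepsin L, lies on chromosome 13 from 64359337 to 64370890. It was 292, 263 and 344 FPKM in WT 1, 2 and 3, and 282, 310 and 356 FPKM in Apelin-KO 1, 2 and 3, with a log2 fold change of -0.08 (95% interval -0.41 to 0.26, adjusted p = 0.890 from limma). WT 2, the sample with most Ctss, had the least Ctsl and the least Ctsb. The rodent cathepsin genes related to Ctsl, namely Ctsj, Ctsm, Ctsq, Ctsr, Cts3, Cts6, Cts7, Cts8 and Ctsll3, were listed at 0 in all 6 samples.

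Ctsz, on chromosome 2 from 174427493 to 174439039, encodes the carboxypeptidase cathepsin Z. It was 143, 141 and 111 FPKM in WT 1, 2 and 3, and 108, 132 and 127 FPKM in Apelin-KO 1, 2 and 3. The groups overlapped over most of their range, and the log2 fold change was 0.10 (95% interval -0.23 to 0.43, adjusted p = 0.849 from limma).

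Ctsd encodes cathepsin D, the main aspartic protease of lysosomes, on chromosome 7 from 142375911 to 142388038. It was 435, 409 and 322 FPKM in WT 1, 2 and 3, and 277, 324 and 317 FPKM in Apelin-KO 1, 2 and 3. WT 1 and WT 2 lay above the 4 other samples, and WT 3 lay just below Apelin-KO 2. The log2 fold change was 0.34 (SE 0.14, 95% interval -0.00046 to 0.67, limma adjusted p = 0.525). The ratio of Ctsd to Ctsb was 1.06, 1.03 and 0.752 in WT ECs and 0.695, 0.749 and 0.739 in Apelin-KO ECs. It did not overlap, but WT 3 and Apelin-KO 2 were nearly equal. The CLEAR letters shown above for Ctsd are also found at the second start of Ctsa, and whether either site was bound in these cells was not tested.

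Ctse, the other aspartic member, on chromosome 1 from 131638306 to 131675505, stayed below the filter and was not part of the main test. It was 0.461, 0.115 and 0.227 FPKM in WT 1, 2 and 3, 0.055 FPKM in Apelin-KO 1 and 3, and was listed at 0 in Apelin-KO 2. Every WT value lay above every Apelin-KO value, but these stand for an estimated 8.94, 1.99 and 3.99 reads against 0.984, 0 and 0.996 reads. In the fit of all genes without the filter, its log2 fold change was 0.28 (adjusted p = 0.558 from limma).

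Ctsa encodes cathepsin A, which also protects the lysosomal enzymes beta-galactosidase (Glb1) and neuraminidase (Neu1) in a complex. It lies on chromosome 2 from 164832873 to 164841032. Its level was 64.4, 66.8 and 64.1 FPKM in WT 1, 2 and 3, and 60.1, 62.8 and 65.6 FPKM in Apelin-KO 1, 2 and 3, with a log2 fold change of 0.05 (95% interval -0.17 to 0.27, adjusted p = 0.885 from limma). Only 1.99% of the genes tested varied less between samples. Of these partners, named after their values were seen, Glb1 had a log2 fold change of -0.11 (limma adjusted p = 0.814) and Neu1 of -0.21 (limma adjusted p = 0.614).

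The composition of the family shifted with Ctss. Together the 10 members summed to 1567, 1648 and 1358 FPKM in WT 1, 2 and 3 and to 1169, 1373 and 1375 FPKM in Apelin-KO 1, 2 and 3, and the groups overlapped. Ctss was 15.0% of that sum in WT 2 and 1.90% in Apelin-KO 1. Ctsb took 24.0% in WT 2 and 34.1% in Apelin-KO 1. Ctsd stayed between 23.0% and 27.7% in all 6 samples. Ctsb, Ctsd and Ctsl together summed to 1099 ± 34.5 FPKM (SD, n = 3) for the WT and 1042 ± 74.2 FPKM (SD, n = 3) for the Apelin-KO group.

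**Figure D4:**
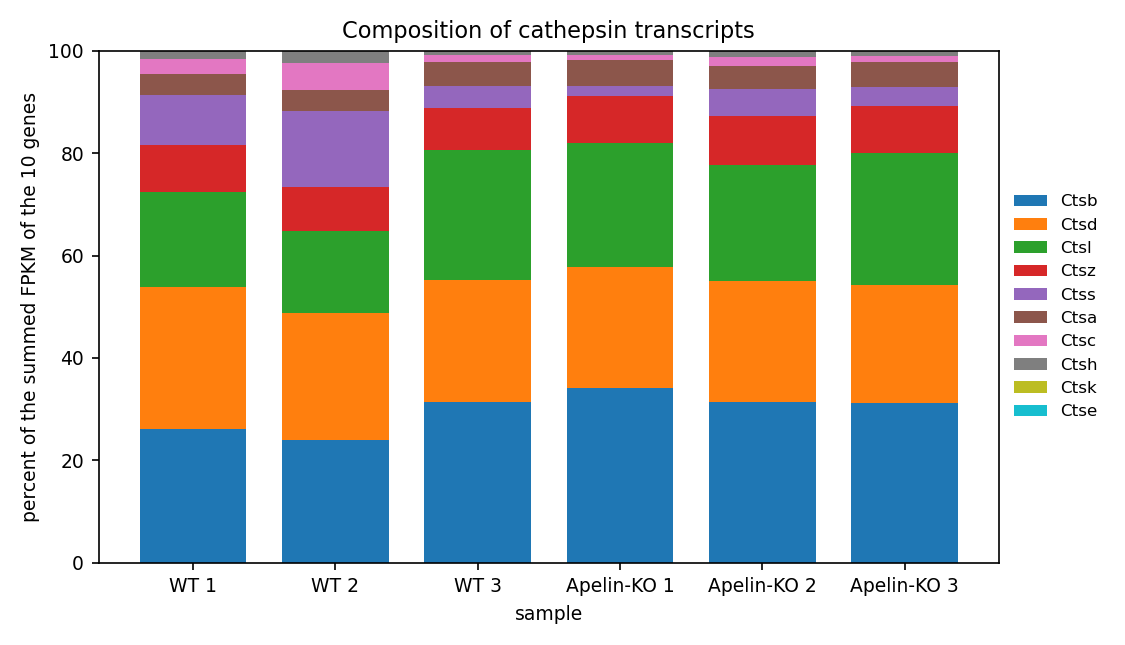
Share of each cathepsin gene in the summed FPKM of the 10 genes, 1 bar per sample. Ctss, in purple, takes 15.0% in WT 2 and 1.90% in Apelin-KO 1, and Ctsk and Ctse are too low to be seen.

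Among the inhibitors, Cst3, the secreted cystatin C, was as abundant as the leading proteases, between 431 and 498 FPKM. Cstb, the cytosolic cystatin B, was 244, 298 and 200 FPKM in WT 1, 2 and 3 and 162, 177 and 217 FPKM in Apelin-KO 1, 2 and 3, and its log2 fold change was 0.41 with an SE of 0.18 (limma adjusted p = 0.531). Its groups overlapped at WT 3 and Apelin-KO 3. Of 5 inhibitor genes tested, 4 were higher in WT ECs by mean and 0 had an unadjusted or adjusted p-value under 0.05. The summed papain-like members were 1.40 to 1.61 times the summed cystatins and stefins in the 6 samples, with means of 1.502 ± 0.0278 (SD, n = 3) in WT ECs and 1.51 ± 0.105 (SD, n = 3) in Apelin-KO ECs. This summed ratio differed by less than its spread between samples. Single ratios had means further apart, in both directions, with groups that overlapped. That of Ctsb to Cstb was 1.68, 1.33 and 2.13 in WT 1, 2 and 3 against 2.47, 2.45 and 1.97 in Apelin-KO 1, 2 and 3. That of Ctss to Cst3 was 0.337, 0.495 and 0.134 in WT 1, 2 and 3 against 0.0516, 0.166 and 0.117 in Apelin-KO 1, 2 and 3.

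The other cathepsins and the lysosomal genes around the family gave the following counts, on log2 fold changes from limma with 0 genes at an adjusted p-value under 0.05 in each list. Of 14 cathepsins outside the 10, 3 were tested. Ctso was the highest, between 31.8 and 38.6 FPKM, with a log2 fold change of 0.12 (adjusted p = 0.732), and Ctsw was between 4.49 and 7.36 FPKM. Ctsf, named after its values were seen, was 3.66, 1.999 and 3.50 FPKM in WT 1, 2 and 3 and 4.26, 4.11 and 4.28 FPKM in Apelin-KO 1, 2 and 3, with all WT values below the Apelin-KO values and an adjusted p of 0.536. Napsa, also named after its values were seen, stayed below the filter and ran the other way without overlap. It was 1.46, 2.26 and 0.512 FPKM in WT 1, 2 and 3, and 0.083, 0.228 and 0 FPKM in Apelin-KO 1, 2 and 3. Without the filter, its log2 fold change was 1.06 (adjusted p = 0.51). Of 6 relatives and partners tested, including Psap, the precursor of saposins, and Lgmn, which processes several cathepsins, 1 was higher and 5 were lower in WT ECs by mean, at a median log2 difference of -0.11, with no unadjusted p-value under 0.05. The 12 genes of mannose-6-phosphate tagging and delivery were divided 6 and 6, and none had an unadjusted p-value under 0.05. Of 32 other lysosomal hydrolases, 20 were higher and 12 lower by mean in WT ECs with a median log2 fold change of 0.06. Of these, 4 higher (Acp5, Arsb, Dpp7 and Pla2g15) and 2 lower had an unadjusted p-value under 0.05, where 9.42% of all genes tested did in either direction. Acp5, an acid phosphatase of osteoclasts and macrophages, had the largest difference of these at 0.85 (adjusted p = 0.516), and Ppt2 was among the lower ones at -0.34 (adjusted p = 0.509). Of 28 lysosomal membrane and proton pump genes, 14 were higher and 14 lower, with a median of 0.0023, and only Atp6v0d1, at -0.29 (adjusted p = 0.525), had an unadjusted p-value under 0.05. Among 8 regulators, 7 were lower in WT ECs by mean, with a median log2 fold change of only -0.048. Tfeb was 3.32, 5.24 and 5.25 FPKM in WT 1, 2 and 3 and 5.86, 6.05 and 7.08 FPKM in Apelin-KO 1, 2 and 3, without overlap, at -0.41 (adjusted p = 0.525).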

How the data were processed

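RNA-sequencing values of sorted tumor ECs were used as deposited. Stranded mRNA libraries were read from a single end. The authors aligned to mm10 by TopHat and Bowtie2, and their FPKM come from Cufflinks 2.2.1. The submitters' processing notes name TopHat2 2.1.1, Bowtie2 2.2.4 and SAMtools 1.0, which differ from the versions in the methods. The deposited FPKM hold no read counts, and the annotation and strand setting are not given in the sources used here. Cufflinks divides reads between overlapping transcripts, which can shift the level of genes with shared sequence.

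Genes averaging 1 FPKM or more over the 6 samples were compared as log2(FPKM + 1), as the difference of WT from Apelin-KO, in limma 3.58.1 in R 4.3.3, two-sided and without a block, with Benjamini-Hochberg adjustment over all 10964 genes tested. A fold change on this scale understates that of low genes. This moderated test over all genes took the place of the two-sided test without moderation that the methods name. The fit was tested on simulated data. Depth was estimated from the size of the steps between low FPKM of 3742 genes with a single GENCODE transcript longer than 700 bases, for 200-base fragments, and 68.2% to 72.3% of low values lay within 0.1 of a whole read. Positions come from GENCODE M21 and promoters from RefSeq, both on GRCm38, which is mm10.

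All 10 members were named, with Apln, in each gene list the 2 genes of highest mean and up to 5 genes with an unadjusted p-value under 0.05, and the 2 genes most like each member. Where many qualified, the text gives a part of them. The members and lists were chosen with earlier results of these data known. Alternatives changed the pseudocount, filter, scaling, variance, block and samples. The samples are described as separate mice only through the group sizes in the study, so p-values measure the spread between these samples. Tables and plots were made in Python 3.11.15.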

Additional observations from a re-analysis of the deposited data

How the results depend on the processing

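With every alternative run, 0 members had an adjusted p-value under 0.05. Of 134 member values under the 15 alternatives, 130 kept their direction. The others were Ctsb at 0.010 (scaled to the same FPKM sum), Ctsk at 0.032 (without Apelin-KO 2; -0.16 to 0.032 over the samples left out) and Ctsl at 0.013 (without WT 2 and without Apelin-KO 3; -0.18 to 0.013). The cause was not tested. The 2 members with an unadjusted p-value under 0.05 became 1 with a pseudocount of 0.1 (959 of all genes) and when scaled to the same FPKM sum (958), 0 with each gene's own variance (783), and 0 to 4 when a sample was left out. They became 3, with Ctsd added, with a pseudocount of 5 (1100 of all genes), a mean of at least 5 FPKM (727), upper quartile scaling (1050) or an intensity trend (1098). Without the filter (1452) they were also 2, but Ctsd and Ctse in place of Ctss and Ctsc. With the replicate block (893) they were 2, and the log2 fold changes were the same by construction. Samples with the same number showed no consistent pairing (correlations of deviations of -0.140, 0.207 and -0.0186 for numbers 1, 2 and 3). The 0 members with groups that do not overlap became 1 without the filter (Ctse), and 0 to 5 when a sample was left out. Over all genes, the 1 gene with an adjusted p-value under 0.05 became 2 with a pseudocount of 5, without the filter, with a mean of at least 5 FPKM or with an intensity trend, 0 with each gene's own variance, and 0 to 3 when a sample was left out. The 1033 genes with an unadjusted p-value under 0.05 became 538 to 1233, and the 1577 genes whose groups do not overlap became 2213 to 3286, when a sample was left out. With fewer samples, fewer values have to be separated. Depth limits Ctse and Ctsk most. Scaling moved the median of all genes by at most 0.03. Members moved somewhat more when scaled to the same FPKM sum, such as Ctsa from 0.051 to 0.094 and Ctsd from 0.335 to 0.378.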
